A study of Mus musculus with 12 samples.

Results

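The basement membrane proteins and the integrin receptors that bind them were followed through 6 h of FGF receptor activation in the mouse mammary gland. Members were chosen by gene symbol: all laminin chains, the collagens of the basement membrane zone, all integrin alpha and beta subunits, the nidogens Nid1 and Nid2, the proteoglycans Hspg2 and Agrn, dystroglycan, and 6 proteins that link integrins to actin. The rule found 43 of the 7318 genes in the deposited table. They comprise 11 laminin chains, Col4a2, Col7a1, Col17a1, 4 nidogens and proteoglycans, Dag1, 17 integrin subunits and 6 linkers. The remaining match, Col4a3bp, encodes a ceramide transfer protein and is no collagen, so its values are given apart. The rule reads symbols alone, but it was chosen with earlier results of these data known.

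A basement membrane is a thin sheet of laminin and collagen IV networks, joined by nidogens and perlecan, on which the mammary epithelium rests. Integrins are alpha-beta heterodimers of the cell surface: alpha3beta1, alpha6beta1, alpha6beta4 and alpha7beta1 bind laminins, alpha1beta1 and alpha2beta1 bind collagens, and the RGD-binding subunits pair into receptors for fibronectin, vitronectin and related ligands. In the gland the basal, myoepithelial cells touch this sheet. They hold on to it through actin-linked adhesions, where talins, kindlins and vinculin join integrin tails to the cytoskeleton, and through hemidesmosomes built on alpha6beta4.

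All libraries came from female FVB/N mice aged 4 weeks that carried both MMTV-Wnt1 and MMTV-iFgfr1, transgenes driven in mammary epithelium by the mouse mammary tumour virus promoter. Wnt1 is a secreted growth factor, and iFgfr1 is an FGF receptor 1 that signals when the drug AP20187 pulls its copies together. Controls had the same alleles and received vehicle by intraperitoneal injection, and the treated animals received AP20187 by that route; cells were taken after 6 h. Glands 3 to 5 were digested with collagenase in the presence of cycloheximide, which holds ribosomes on mRNA, and epithelial cells were enriched by short spins without a sort. Poly(A) RNA and ribosome footprints (the stretches of mRNA covered by ribosomes) were sequenced in 3 libraries per treatment and assay, 12 in all. AP20187 was given to no animals without iFgfr1, so a drug effect and a receptor effect cannot be told apart. The labels leave it unsaid if 1 mouse or a pool made each library, so the p-values measure the spread between these libraries.

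RNA libraries held 94513818 to 251874393 counts and footprint libraries 1772969 to 11018709, and levels are given as CPM, counts scaled to a common library size. The members took 0.818 to 0.995% of the counts of vehicle RNA libraries and 0.611 to 0.819% of those treated with AP20187. Among footprints the shares were 1.1 to 1.73% and 0.713 to 0.985%. All 43 members passed the filter on low counts in every comparison. The lowest member count in an RNA library was 431, whereas Itgb3 had 2 footprint counts in vehicle replicate 1, under the floor of 3 counts (1.61 CPM there). No cell type was sorted, and markers of several types moved between the groups. The summed RNA level of 11 luminal markers was 5180.5 to 8723 CPM in vehicle and 12888 to 20380.0 CPM in AP20187 libraries, and 8 of the 11 rose while 2 fell. For 10 basal or myoepithelial markers the sums were 5349.7 to 6107 and 2931 to 4536 CPM, with 1 risen and 5 fallen. Fibroblast markers summed to 3417 to 5958 and 1308 to 1757 CPM (6 of 7 fell), endothelial markers to 608 to 818 and 336 to 371 CPM (5 of 5 fell), and adipocyte markers to 269.7 to 523 and 50.3 to 108 CPM (4 of 6 fell). Pericyte markers summed to 430.4 to 511 and 420.2 to 508 CPM, with 1 of 5 fallen, and Schwann cell markers to 431 to 517 and 569 to 862 CPM, with 1 of 8 risen and 5 fallen. Leukocyte and macrophage sums were 169 to 331 and 334 to 848 CPM in vehicle against 336 to 424 and 1181 to 1465 CPM, with 1 gene risen in each, Lcp1 of 3 and Cd14 of 4, which held most of each group's mean sum. Over all genes tested in RNA 12.4% rose and 13.9% fell. No listed marker was at 0 in any group. In such bulk libraries fewer cells of a type and less RNA per cell cannot be told apart, and the part these markers play in the results below was not tested.

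Start-site regions are shown for members that moved: Fermt2, which rose in RNA, and Lama2, Lamb1 and Col7a1, which fell in both RNA and footprints. Of the 43 members, 28 have a window in the RefSeq promoter table (GRCm38.p6). Each sequence below runs 5' to 3' on the gene's strand and stops before the more upstream of the RefSeq start and the start of the principal GENCODE transcript, which shortened the Fermt2 and Lamb1 stretches. For Lama2 a retained-intron transcript starts farther upstream, so its stretch lies inside the gene's outer limits. Capitals mark GGGCGG or its reverse complement, the box bound by Sp1-type factors. The regions are chr14:45530119-45530315 (minus strand, Fermt2), chr10:27616943-27617192 (minus strand, Lama2), chr12:31265043-31265233 (plus strand, Lamb1) and chr9:108953336-108953585 (plus strand, Col7a1).
Fermt2: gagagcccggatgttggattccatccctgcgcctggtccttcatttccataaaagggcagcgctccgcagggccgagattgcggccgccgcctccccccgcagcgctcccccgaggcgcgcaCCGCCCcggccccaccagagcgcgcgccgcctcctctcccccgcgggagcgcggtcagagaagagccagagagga
Lama2: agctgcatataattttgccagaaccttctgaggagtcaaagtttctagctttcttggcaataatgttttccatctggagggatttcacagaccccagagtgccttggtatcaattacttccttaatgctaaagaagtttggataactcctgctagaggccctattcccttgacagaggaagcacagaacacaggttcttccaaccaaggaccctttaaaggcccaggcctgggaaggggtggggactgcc
Lamb1: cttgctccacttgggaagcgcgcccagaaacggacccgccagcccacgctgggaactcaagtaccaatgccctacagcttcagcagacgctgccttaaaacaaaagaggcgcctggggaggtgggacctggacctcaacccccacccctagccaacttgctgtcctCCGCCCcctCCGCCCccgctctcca
Col7a1: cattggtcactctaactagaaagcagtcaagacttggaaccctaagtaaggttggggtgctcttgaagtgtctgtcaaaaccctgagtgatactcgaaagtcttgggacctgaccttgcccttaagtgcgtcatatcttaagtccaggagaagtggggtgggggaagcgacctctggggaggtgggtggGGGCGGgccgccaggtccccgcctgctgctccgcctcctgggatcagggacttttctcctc

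The Fermt2 and Col7a1 stretches each held 1 GGGCGG box, the Lamb1 stretch held 2 and the Lama2 stretch none. Over the whole 250 bases before the RefSeq start, not shortened and read on both strands, 15 of the 28 members with a window held this box (53.57%), against 63.47% of 5667 promoters. TGANTCA, the AP-1 motif, was found in 1 member (Itgax) and in 3.9% of promoters. CACGTG was found in Ilk alone among the members and in 8.77% of promoters, and TATAAA in Col17a1 alone and in 5.858%. CTTTGAT and CCGGAAGT, which TCF/LEF and ETS factors bind, were in none of the 28 and in 1.976% and 6.67% of promoters.

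In RNA, 19 of the 43 members changed after 6 h of AP20187, 4 upward and 15 downward. Itgb4, Fermt2, Itgam and Lama4 rose. Those that fell include Lama2, Lama3, Lamb1, Lamb2, Lamb3, Lamc3, Col4a2, Col7a1, Nid1, Itga1, Itga5, Itga7, Tln2 and Vcl. Of all 7314 genes tested, 26.2% were called, 12.4% higher and 13.9% lower, by edgeR's quasi-likelihood test with Benjamini-Hochberg adjustment at 0.05. The members' median log2 fold change was -0.39 and that of all genes 0.01, and 34 of 43 members lay below 0. The counts shrank without certain libraries, for members and for all genes. Leaving out vehicle replicate 1, vehicle replicate 3 or AP20187 replicate 1 left 4 members lower and 1 higher each time. Over all genes, the lower calls went from 1013 to 410, 291 and 394, and the higher calls from 906 to 307, 247 and 388. The members' median was then -0.42, -0.30 and -0.43. Leaving out AP20187 replicate 3 left 10 members lower, and 732 genes lower over all genes. The calls of Itga5, Itga7, Itgb4, Lama2 and Vcl held under all 10 alternatives, and each of the other 14 ended without any of those first 3 libraries.

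The shift showed in every treated RNA library. The median of the 43 members' log2 levels against the vehicle mean was 0.11, -0.19 and 0.06 in vehicle RNA replicates 1 to 3 and -0.49, -0.27 and -0.61 in AP20187 RNA replicates. AP20187 replicate 2 was the least shifted of the treated libraries, and vehicle replicate 2 the lowest of the controls. The same medians were -0.30, -0.09 and 0.26 in vehicle footprints and -0.47, -0.54 and -0.84 in AP20187 footprints. Each of the 8 footprint calls given below ended without vehicle footprint replicate 1, 2 or 3, or AP20187 footprint replicate 1. Each of these omissions left only 0 to 3 genes higher and 0 lower over all genes tested. The heat map shows 42 of the members in every library.

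**Figure D1:**
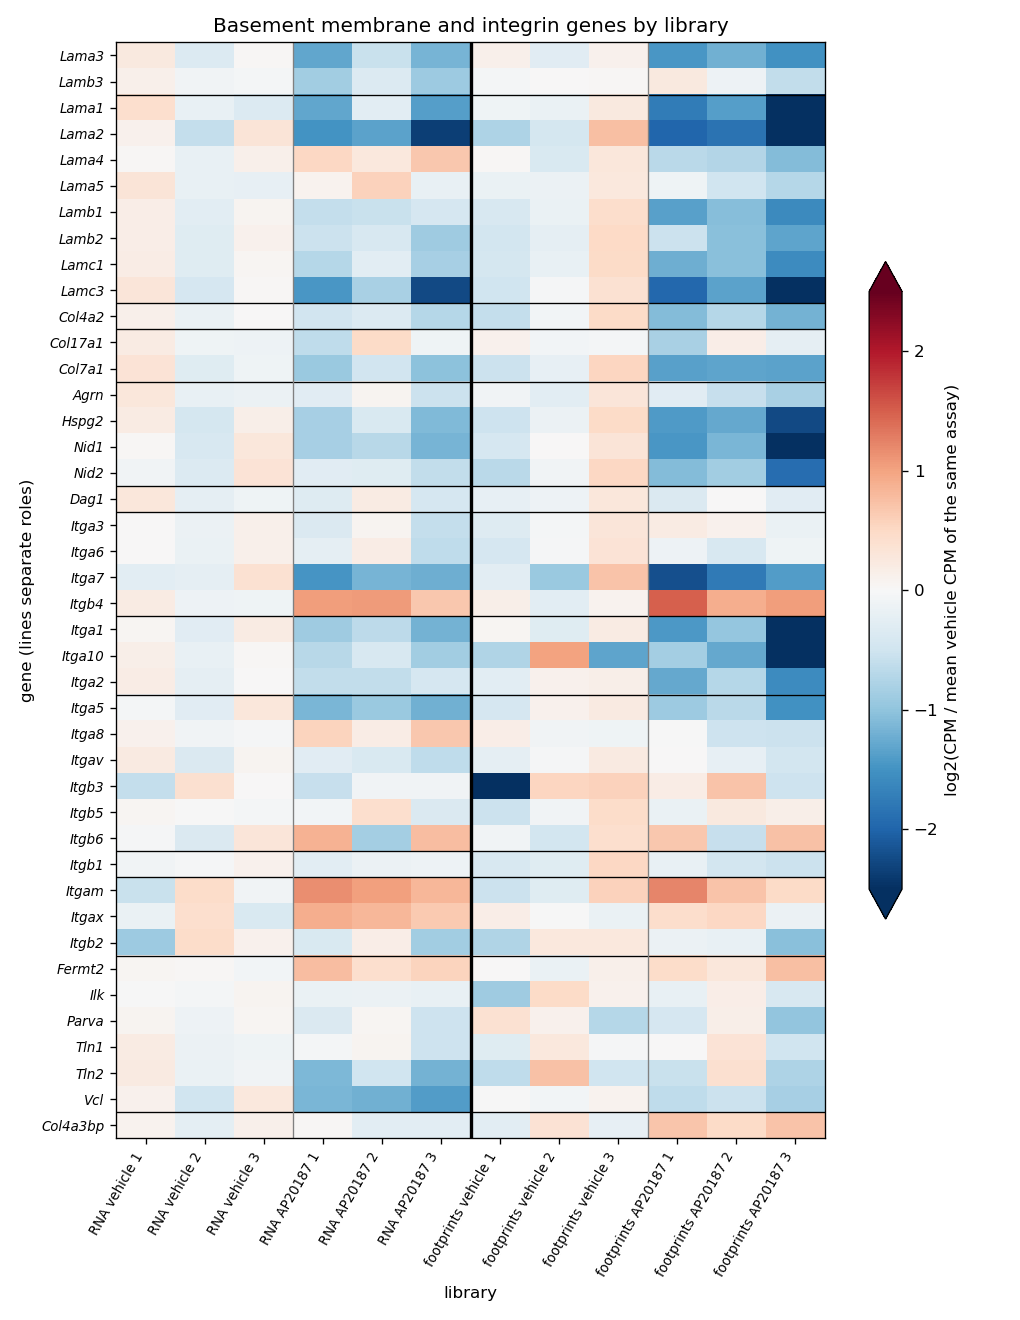
Level of each of 42 members (rows, grouped by role) in each of the 12 libraries (columns), as the log2 ratio to the mean of the 3 vehicle libraries of the same assay. Most laminin, nidogen and collagen members are below the vehicle mean in the AP20187 libraries of both assays, with Itgb4 above it in both and Lama4 above it in RNA and below it in footprints; the colour scale ends at the limits shown, so stronger shifts share the end colour.

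Lama3 and Lamb3, the alpha and beta chains of laminin-332, the laminin of hemidesmosomes and the ligand of alpha6beta4, fell in RNA. Lama3 measured 214, 142 and 184 CPM in vehicle RNA libraries and 73.4, 122 and 80.1 CPM in AP20187 libraries. The groups did not overlap, although treated replicate 2 came near vehicle replicate 2. Its log2 fold change was -0.97 ± 0.23 (SE, n = 3 per group, adjusted p = 0.02). Lamb3 went from 188, 160.4 and 166 CPM to 93.6, 135 and 91.8 CPM (-0.68 ± 0.18, adjusted p = 0.0258). Every treated library lay below every vehicle library for both chains. In RNA, 23.1% of all genes tested were separated in this direction. Neither call held without vehicle replicate 1, vehicle replicate 3 or AP20187 replicate 1.

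Footprints on these chains differed from each other. Lama3 footprints were 222, 167 and 218 CPM in vehicle and 73.4, 88.3 and 70.4 CPM after AP20187, a fall of all treated libraries below the controls (log2 fold change -1.39 ± 0.25, adjusted p = 0.0237). Lamb3 footprints overlapped, at 142, 149 and 151 CPM against 174, 136 and 96.4 CPM (-0.12, adjusted p = 0.882). Per kilobase of coding sequence, Lama3 footprints relative to Lamb3 were 0.392 to 0.546 in vehicle and 0.148 to 0.256 after AP20187, without overlap. Their RNA ratio, per kilobase of transcript, overlapped, at 0.409 to 0.523 in vehicle and 0.362 to 0.417 after AP20187.

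Among 8 further laminin chains 4 fell in RNA and 1 rose, where 13.9% of all genes tested fell and 12.4% rose. Lama2 fell the furthest of all 43 members in RNA. It encodes the alpha chain of the laminins of muscle, peripheral nerve and mesenchymal basement membranes and lies at chr10:26980036-27619758 on the minus strand, with 65 exons in its principal transcript. Lama2 RNA was 224, 137 and 260.4 CPM in vehicle and 73.5, 81.5 and 40.8 CPM after AP20187, so the groups lay well apart. The log2 fold change was -1.67 ± 0.31 (adjusted p = 0.0102). Lama2 footprints were 326, 411 and 936 CPM in vehicle, with replicate 3 far above the others, and 141, 156 and 47.3 CPM after AP20187. They fell by 2.28 on the log2 scale (SE 0.50, adjusted p = 0.0417). Lamc3, a gamma chain that replaces gamma1 in some laminins, measured 41.7, 25.5 and 34.8 CPM in vehicle RNA and 12.3, 19.4 and 7.16 CPM in treated RNA (-1.39 ± 0.35, adjusted p = 0.0254). Its footprints were 93.1, 129 and 170.2 CPM against 33.7, 51.5 and 19.9 CPM (-1.91 ± 0.37, adjusted p = 0.0295). For both chains each assay separated the groups. Fibroblast markers, which summed to 11516 to 31530.0 CPM in vehicle footprints and 3180.5 to 4828 CPM in treated footprints, moved the same way, and their part in these values was not tested.

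Lamb1 and Lamc1, with Lama1 or Lama5, build the common laminins of most epithelial basement membranes. Lamb1 RNA was 286, 214 and 269 CPM in vehicle and 169, 174 and 193 CPM after AP20187 (-0.52 ± 0.15, adjusted p = 0.0345). Its footprints showed a wider gap, at 598, 705 and 1068 CPM against 310.0, 378 and 260.5 CPM (-1.32 ± 0.30, adjusted p = 0.0447). Lamb1 was separated between the groups in each assay. Lamb2, the beta chain that takes the place of Lamb1 in other laminins, fell in RNA by 0.59 (SE 0.18, adjusted p = 0.0444). Its footprint change of -0.94 did not pass without the replicate block (adjusted p = 0.174) or with it (adjusted p = 0.0574). Lamc1 did not pass in RNA (-0.58, adjusted p = 0.0586), and its footprints did not pass (-1.26, adjusted p = 0.0579). With the replicate number as a block the footprints passed (adjusted p = 0.00791). Lama5, the alpha chain with the highest RNA level of the 8, measured 346, 242 and 237 CPM in vehicle RNA and 291, 411 and 242 CPM after AP20187. Its groups overlapped (0.20, adjusted p = 0.553).

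Lama1 was called in footprints alone. It encodes the alpha chain of a laminin present in early embryos and lies at chr17:67697259-67822647 on the plus strand. Lama1 footprints were 514, 492 and 659 CPM in vehicle and 164, 213 and 87.1 CPM after AP20187. The treated libraries lay far below the controls, with a log2 fold change of -1.84 ± 0.34 (adjusted p = 0.0237). Lama1 RNA, at 138, 90.6 and 81.8 CPM against 42.2, 86 and 39.7 CPM, overlapped through treated replicate 2 (-0.89, adjusted p = 0.0764). The ratio of Lama1 to Lama5 per kilobase of transcript was 0.413 to 0.476 in vehicle RNA and 0.173 to 0.25 after AP20187. The footprint ratio, per kilobase of coding sequence and so on another length basis, was 2.44 to 2.58 in vehicle and 0.64 to 1.35 after AP20187. Within each assay the groups did not overlap.

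Lama4 went up in RNA while its footprint values lay lower. This alpha chain belongs to laminins of blood vessels and other mesodermal tissues, and the gene lies at chr10:38965515-39110188 on the plus strand. Lama4 RNA was 109, 94.2 and 117 CPM in vehicle and 152, 129 and 171 CPM after AP20187, separated upward (0.50 ± 0.15, adjusted p = 0.0425). In RNA, 21.9% of all genes tested were separated upward. Lama4 footprints were 241, 181 and 290.1 CPM in vehicle and 149, 143 and 113 CPM after AP20187. The treated footprint libraries were the lower ones, with a log2 fold change of -0.82 ± 0.27 that did not pass (adjusted p = 0.143). With the replicate block it passed (adjusted p = 0.0366). Leaving out any of the 3 vehicle RNA libraries, or AP20187 replicate 1 or 3, ended the RNA call. The RNA level of Lama2 per kilobase was 0.916 to 1.4 times that of Lama4 in vehicle libraries and 0.15 to 0.399 times after AP20187. Endothelial marker sums in RNA were lower after AP20187, opposite to Lama4 RNA. In footprints these sums were 849 to 1161 CPM in vehicle and 278 to 563 CPM after AP20187, the same direction as Lama4 footprints. The part of these markers was not tested.

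**Figure D2:**
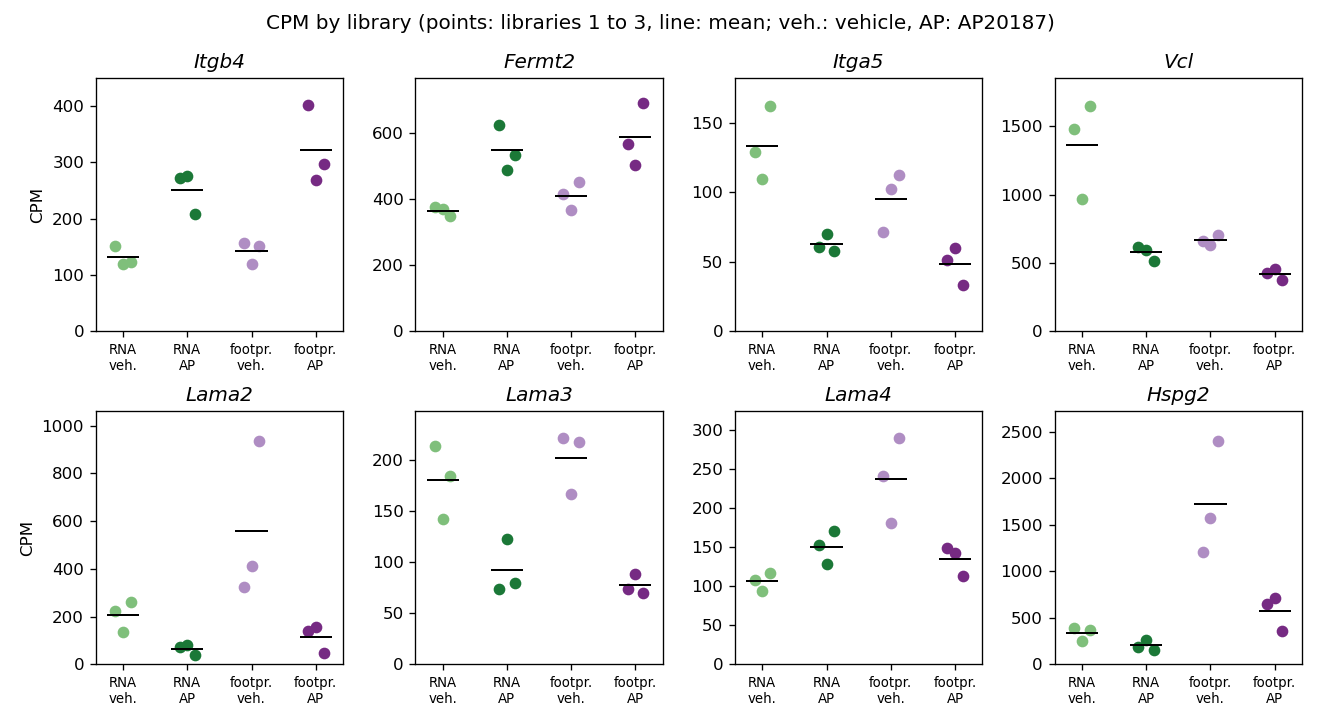
CPM per library (points, linear axis from 0) and group mean (horizontal lines) of 8 members, Itgb4, Fermt2, Itga5, Vcl, Lama2, Lama3, Lama4 and Hspg2, in the 3 vehicle and 3 AP20187 libraries of each assay. Itgb4 lies higher after AP20187 in both assays, Lama2 and Lama3 lower in both, and Lama4 higher in RNA and lower in footprints.

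Collagens of the basement membrane zone showed lower or overlapping levels. Col4a2, the only chain of collagen IV listed, measured 845, 689 and 783 CPM in vehicle RNA and 551, 606 and 469 CPM after AP20187. The groups were separated (-0.51 ± 0.16, adjusted p = 0.0468). Its footprints, 1078, 1546 and 2270.3 CPM against 771, 998 and 723 CPM, were separated but not called (-0.98, adjusted p = 0.146; with the replicate block adjusted p = 0.0315). Col7a1 forms the anchoring fibrils under hemidesmosomes, at chr9:108953586-108984875 on the plus strand. Col7a1 RNA was 329.6, 212 and 242 CPM in vehicle and 137, 187 and 129 CPM after AP20187 (-0.79 ± 0.21, adjusted p = 0.0283). Col7a1 footprints were 225, 280.3 and 469 CPM against 126, 131 and 128 CPM, and the treated libraries were nearly equal (-1.34 ± 0.30, adjusted p = 0.0441). Col17a1, the transmembrane collagen of hemidesmosomes, had a log2 fold change of -0.01 in RNA (adjusted p = 0.976), with treated libraries from 75.9 to 166 CPM around vehicle libraries of 109 to 136 CPM.

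All 4 nidogens and proteoglycans had log2 fold changes below 0 in both assays. Nid1, which links laminin to collagen IV, measured 224, 165 and 267 CPM in vehicle RNA and 123, 136 and 97.6 CPM after AP20187. The fall was -0.88 ± 0.20 on the log2 scale (adjusted p = 0.0187), with no overlap. Nid1 footprints were 339, 461 and 569 CPM against 166, 207 and 73.8 CPM, separated and short of the threshold (-1.62 ± 0.38, adjusted p = 0.0509), which they passed with the replicate block (adjusted p = 0.004). Hspg2 encodes perlecan, the large heparan sulfate proteoglycan of the sheet, at chr4:137468769-137570630 on the plus strand. Its footprints were 1206, 1569.6 and 2405 CPM in vehicle and 651, 714 and 362 CPM after AP20187, and the groups lay apart (-1.59 ± 0.36, adjusted p = 0.0441). Hspg2 RNA, 393, 249 and 375 CPM against 190.3, 262 and 158 CPM, overlapped and did not pass (-0.74, adjusted p = 0.0506). Nid2 did not pass in RNA (-0.39) or footprints (-1.23), though its footprints passed with the replicate block (adjusted p = 0.033). Agrn, the highest of the 4 in mean CPM over the 6 RNA libraries (Hspg2 was higher in vehicle), measured 373, 271 and 278 CPM in vehicle RNA and 253, 321 and 212 CPM after AP20187 (-0.23, adjusted p = 0.406). Dag1, the dystroglycan precursor that binds laminin from the cell surface, was at 287, 203 and 220.4 CPM against 188, 273 and 176 CPM (-0.16, adjusted p = 0.599).

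Itgb4 rose in both assays, unlike Lama3 and Lamb3, chains of the laminin that its receptor binds. It encodes the beta4 subunit, which pairs with alpha6 alone, and lies at chr11:115974709-116008412 on the plus strand. Itgb4 RNA was 151, 120.0 and 123 CPM in vehicle and 271, 275 and 208 CPM after AP20187. Footprints on Itgb4 were 157, 119 and 152 CPM in vehicle and 401, 268 and 296 CPM after AP20187. All treated libraries exceeded all controls in each assay. The log2 fold changes were 0.94 ± 0.16 in RNA (adjusted p = 0.00852) and 1.17 ± 0.26 in footprints (adjusted p = 0.0441). The RNA call held under all 10 alternatives. The footprint call ended without any of the 3 vehicle footprint libraries and without AP20187 replicate 1.

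Its partner Itga6 showed no such separation. Itga6 RNA was 621, 548 and 672 CPM in vehicle and 522, 694 and 397 CPM after AP20187, overlapping (-0.19, adjusted p = 0.528). Per kilobase of transcript, Itgb4 RNA was 0.128 to 0.171 of Itga6 RNA in vehicle and 0.277 to 0.367 after AP20187. The footprint ratio, per kilobase of coding sequence, was 0.122 to 0.217 in vehicle and 0.329 to 0.448 after AP20187, so each assay separated the groups. An exact permutation test of 3 libraries against 3 cannot give a p below 0.1, so these ratios carry none. Itga3, which pairs with beta1 to bind laminin-332, overlapped in RNA (-0.27, adjusted p = 0.288). Itga7, the subunit of the laminin receptor of muscle cells, fell from 20.7, 21 and 32.3 CPM to 8.87, 11.1 and 10.6 CPM. Its groups did not overlap (-1.27 ± 0.23, adjusted p = 0.00946), and the footprint change of -1.77 ± 0.44 passed with the replicate block (adjusted p = 0.00668) but not without it (adjusted p = 0.0653). Basal marker sums were also lower after AP20187, and their part was not tested.

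The 3 collagen-binding subunits were all separated downward in RNA, and Itga1 passed the test. Among all genes tested in RNA, 23.1% were separated downward and 13.9% were called lower. Itga1 pairs with beta1 into a collagen IV receptor. Its RNA measured 29.6, 23.5 and 33.2 CPM in vehicle and 15.6, 18.4 and 12.7 CPM after AP20187 (-0.89 ± 0.21, adjusted p = 0.0195). Counts of Itga1 are uncertain, because Pelo and another gene model overlap it on the same strand. Itga1 footprints were 75, 59.4 and 84 CPM against 27, 37.4 and 12.2 CPM, separated and not called (-1.51 ± 0.40, adjusted p = 0.0783), and passed with the replicate block (adjusted p = 0.0118). Itga2 and Itga10 had RNA log2 fold changes of -0.55 and -0.64 (adjusted p = 0.0552 and 0.0651), and Itga10 too shares its strand with an overlapping gene model.

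Itga5 had the smallest p of the members in RNA. With beta1 it forms the main fibronectin receptor, and it lies at chr15:103344286-103366763 on the minus strand. Itga5 RNA was 129, 109.7 and 162 CPM in vehicle and 60.7, 70 and 58 CPM after AP20187. The treated libraries were close together and all below the controls (-1.09 ± 0.17, adjusted p = 0.00736). Footprints on Itga5 were 71.7, 103 and 112 CPM against 51.2, 59.8 and 33.5 CPM, lower in every treated library but not called (-0.99 ± 0.31, adjusted p = 0.125). With the replicate block they passed (adjusted p = 0.0332). The other 5 RGD-binding subunits (Itga8, Itgav, Itgb3, Itgb5 and Itgb6) did not pass in RNA, with log2 fold changes from -0.42 to 0.49. Itgav, the highest of the 6 in mean CPM over the 6 RNA libraries, measured 185, 122 and 167 CPM in vehicle and 131, 121 and 102 CPM after AP20187 (-0.42, adjusted p = 0.112). Itga8 was separated upward in RNA, at 73.4, 64.6 and 66.6 CPM against 101, 77.5 and 109 CPM, and narrowly missed the threshold (0.49, adjusted p = 0.0511).

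Itgb1, the beta subunit shared by most laminin, collagen and fibronectin receptors, did not pass. Its RNA was 612, 642 and 704 CPM in vehicle and 543, 586 and 597 CPM after AP20187 (-0.18, adjusted p = 0.342). The Itga5 to Itgb1 ratio per kilobase of transcript went from 0.149 to 0.201 in vehicle RNA to 0.0846 to 0.104 after AP20187, without overlap. The footprint ratio, per kilobase of coding sequence, overlapped, at 0.0764 to 0.122 and 0.0471 to 0.0798. Of the leukocyte integrins, Itgam, the alpha subunit of the complement receptor of macrophages and neutrophils, rose in RNA. Itgam measured 6.19, 12.6 and 8.53 CPM in vehicle and 20.4, 18.5 and 16.1 CPM after AP20187 (1.01 ± 0.27, adjusted p = 0.031). Itgam overlaps another gene model on its strand, so its counts are uncertain. Itgax was separated upward (0.80, adjusted p = 0.0535), and Itgb2, the beta chain that both need, was at 13.3 ± 5.71 and 10.8 ± 3.80 CPM (mean ± SD, n = 3; log2 fold change -0.30). Of the 4 macrophage markers listed, Cd14 rose (1.42), and Mpeg1 (0.56), Cd163 (-0.25) and Cd68 (-0.41) did not pass. Of the 3 leukocyte markers Lcp1 rose (1.29), and Ptprc (-0.96) and Coro1a (-1.09) did not pass. Their part in the Itgam value was not tested.

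**Figure D3:**
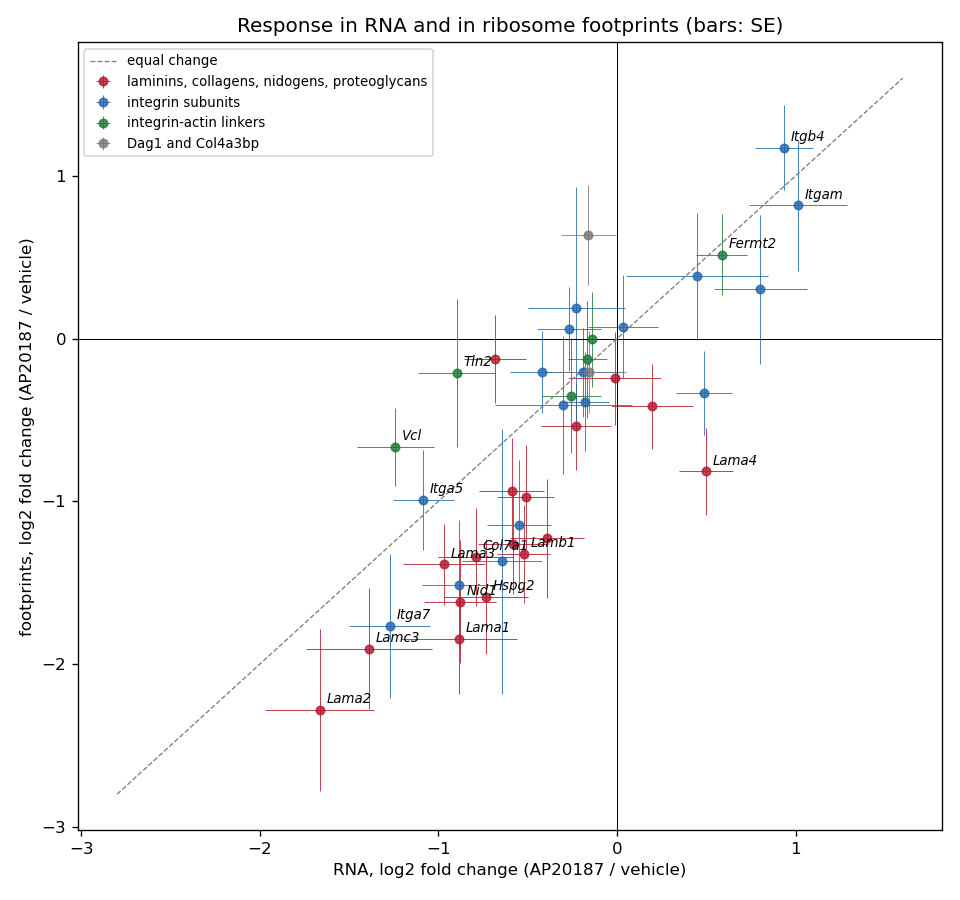
Log2 fold change after AP20187 in RNA (x axis) and in ribosome footprints (y axis) of each of 42 members, with bars for the SE, a dashed line of equal change, and names for members called in footprints and 8 others. Itgb4 lies in the upper right, Lama4 in the lower right, and most laminin, nidogen and perlecan members in the lower left below the line, while Vcl and Tln2 lie above it.

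Of the 6 proteins that link integrins to actin, 2 fell and 1 rose in RNA, where 13.9% of all genes tested fell and 12.4% rose. Vcl encodes vinculin, which reinforces talin-actin links under tension, at chr14:20929398-21033676 on the plus strand. Vcl RNA was 1479, 964 and 1648 CPM in vehicle and 619, 595 and 518 CPM after AP20187, all treated libraries below all controls. The log2 fold change was -1.24 ± 0.22 (adjusted p = 0.00882). Vcl footprints went from 659, 632 and 704 CPM to 430.2, 457 and 373 CPM, also apart, though without passing (-0.66 ± 0.24, adjusted p = 0.185). The replicate block gave an adjusted p of 0.0538. Tln2, the second talin, measured 144, 109 and 114 CPM in vehicle RNA and 56, 87.1 and 53.7 CPM after AP20187 (-0.90 ± 0.21, adjusted p = 0.0208). Tln2 footprints overlapped, at 26.3, 67.6 and 28.8 CPM against 27.7, 54.3 and 23.9 CPM (-0.21, adjusted p = 0.882).

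Fermt2, the kindlin that binds beta integrin tails beside talin, rose in RNA from 375, 370.3 and 349 CPM to 622, 487 and 533 CPM (0.59 ± 0.14, adjusted p = 0.0225). Its footprints were 414, 366 and 449.6 CPM against 567, 501 and 690.0 CPM. All treated libraries were above all controls in both assays. The footprint change of 0.52 ± 0.25 did not pass (adjusted p = 0.34), nor did it with the replicate block (adjusted p = 0.127). In footprints 11.4% of all genes tested were separated upward. Fermt2 RNA per kilobase was 2.35 to 2.97 times that of Tln1 in vehicle and 3.37 to 5.53 times after AP20187. In footprints per kilobase of coding sequence that ratio overlapped, at 1.85 to 3.10 and 2.40 to 5.91. Tln1, Ilk and Parva, a talin and 2 members of the complex that docks actin to integrin tails, did not pass in RNA, with log2 fold changes of -0.26 to -0.14. The RNA calls of Fermt2 and Tln2 ended without vehicle replicate 1, vehicle replicate 3 or AP20187 replicate 1. Col4a3bp did not pass in RNA (-0.16) or footprints (0.64, separated upward).

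In footprints 8 of the 43 members were called, Itgb4 upward and Lama1, Lama2, Lama3, Lamb1, Lamc3, Col7a1 and Hspg2 downward. Of all 7041 genes tested 2.54% were called, 0.937% higher and 1.6% lower. All 7 lower calls were basement membrane proteins. The 18 basement membrane zone proteins had a median log2 fold change of -1.25, and 18 of 18 lay below 0, whereas the median was -0.21 over the 17 integrin subunits and -0.17 over the 6 linkers. Over all genes it was 0.03. By separation, 20 members had all treated footprint libraries below all vehicle libraries, against 11.8% of all genes tested, and 15 of these were basement membrane zone proteins. In RNA 6 members were separated upward, against 21.9% of all genes tested, and 19 downward, against 23.1%. Same-numbered footprint libraries deviated together, and with the number as a block 15 members were lower and 1 higher. That added Col4a2, Itga1, Itga5, Itga7, Lama4, Lamc1, Nid1 and Nid2. The block also raised the calls over all 7041 genes, to 362 lower and 353 higher. Without vehicle footprint replicate 1, 2 or 3, or AP20187 replicate 1, no member was called. Over all genes these omissions left 0, 0, 3 and 2 genes higher and 0 lower. The members' median log2 fold changes were then -0.58, -0.47, -0.42 and -0.59. Without AP20187 replicate 3, 4 members were lower, with 84 genes higher and 86 lower over all genes.

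Called in both assays were Itgb4 upward and Lama2, Lama3, Lamb1, Lamc3 and Col7a1 downward. A further 10 members were lower in RNA alone, 3 higher in RNA alone, and Lama1 and Hspg2 lower in footprints alone. Passing in a single assay does not show that the assays differ. That difference, the change in footprints per RNA or translational efficiency, was tested over all 12 libraries. No member was called, nor was any of the 7315 genes tested, a share of 0%. At an unadjusted p under 0.05 there were 1 member higher and 3 lower, against 194 higher and 156 lower among all 7315 genes tested. Whether the members' counts exceed this background was not tested. DESeq2 called 1 member lower, Lama4.

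The members' median change in translational efficiency was -0.28, that of all genes -0.08, and 33 of 43 members were below 0 against 4216 of 7315 genes. Among the 18 basement membrane zone proteins the median was -0.63 and 17 were below 0, with Lamb3 (0.51) the exception. For integrin subunits the median was -0.16 and for linkers 0.04. Lama4 had the smallest unadjusted p, 0.000535, with a change of -1.37 ± 0.31 and an adjusted p of 0.403, ranging from 0.196 to 1.0 over the edgeR alternatives. DESeq2 gave -1.31 for Lama4 (adjusted p = 0.0374). The others with an unadjusted p under 0.05 were Itga8 (-0.88, adjusted p = 0.922), Lamb1 (-0.86, adjusted p = 0.988) and Col4a3bp (0.76, adjusted p = 0.988). Lama1 stood at -1.01 and Hspg2 at -0.90, and Vcl at 0.53 and Tln2 at 0.64 on the other side. Without vehicle footprint replicate 3 the members' median was -0.002.

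Without AP20187 the members differed in their ratio of footprints to RNA. Footprints over RNA in vehicle libraries, each scaled within its assay, were higher than the average gene for 18 of 43 members and lower for 4. Among all 7306 genes tested 49.9% were called, 24.2% higher and 25.7% lower. The members' median log2 ratio was 0.39 and that of all genes -0.02. Of the 18 basement membrane zone proteins 12 were higher and none lower, with a median of 1.19. The 17 integrin subunits had 5 higher and none lower (median 0.33), and the 6 linkers 1 higher and 3 lower (median -0.39).

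The 4 highest ratios belonged to Lama1 (2.50, adjusted p = 8.5e-05), Hspg2 (2.42, adjusted p = 0.000274), Nid2 (2.06, adjusted p = 0.000744) and Lamc3 (2.02, adjusted p = 0.00043). The mean levels behind Lama1 were 103 ± 30.0 CPM in vehicle RNA and 555 ± 90.7 CPM in vehicle footprints (SD, n = 3). All vehicle footprint libraries of these 4 genes lay above all vehicle RNA libraries. In contrast, Lama3 (0.24) and Lamb3 (-0.14) were not called. The 4 lowest were Tln2 (-1.53, adjusted p = 0.00568), Col4a3bp (-1.27, adjusted p = 0.00239), Ilk (-1.06, adjusted p = 0.0153) and Vcl (-0.97, adjusted p = 0.0085). Vcl, the most abundant member per kilobase in vehicle RNA, had 1364 ± 356 CPM in RNA and 665 ± 36.3 CPM in footprints there. Ilk, Vcl, Nid2, Col4a2, Tln1, Lamb3 and Itga7 are among the members that overlap protein-coding genes on the opposite strand. No source states whether counting used strand, a limit on their RNA and footprint changes as well. The call for Ilk ended without RNA vehicle replicate 3.

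**Figure D4:**
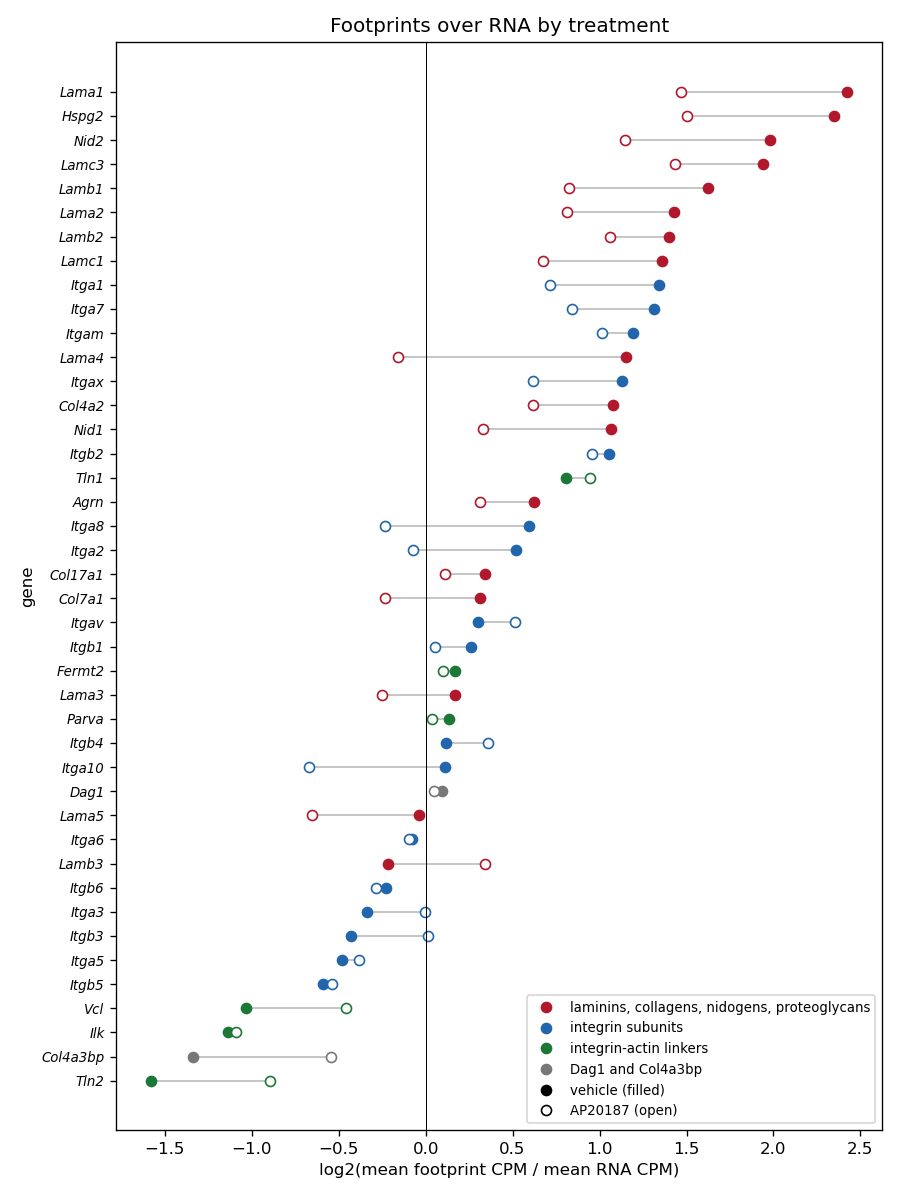
Log2 ratio of footprints to RNA of each of 42 members in vehicle and in AP20187 libraries, computed from group means, ordered by the vehicle value and coloured by kind of protein (filled, vehicle; open, AP20187). In vehicle Lama1, Hspg2, Nid2 and Lamc3 take the upper end and Tln2, Col4a3bp, Ilk and Vcl the lower end, with Lama3, Lama5 and Lamb3 in between.

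From group means, in place of the fitted ratios above, the log2 ratio in vehicle and in AP20187 libraries was 2.42 and 1.47 for Lama1, 2.35 and 1.50 for Hspg2, 1.98 and 1.15 for Nid2, and 1.94 and 1.43 for Lamc3. It was -1.58 and -0.89 for Tln2, -1.04 and -0.46 for Vcl, and -1.14 and -1.10 for Ilk. These pairs are values only. The members' genes are long. Their median coding length was 3534 bases, against 1440 over 7134 listed genes with a principal coding transcript, and the coding part made up 74.4% of the transcript against 54.97%. Basement membrane zone proteins had a median coding share of 89.33%, integrin subunits 69.47% and linkers 62.41%. Across the 43 members Spearman's rho of coding length was 0.494 with the vehicle ratio and -0.501 with the change in translational efficiency. The coding share had a rho of 0.453 with the vehicle ratio. These describe genes of the same libraries, and the part of length in the ratios was not tested.

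Per kilobase of principal transcript, the vehicle RNA levels ranged from 259 CPM for Vcl, 171 for Itgb1, 142 for Itga6, 120 for Col4a2 and 111 for Fermt2 down to 2.04 for Itga10, 1.96 for Itgam and 1.44 for Itgax. So in vehicle RNA the shared receptor subunit Itgb1 and the laminin receptor subunit Itga6 exceeded every laminin chain. The leukocyte subunits Itgam and Itgax were the rarest there together with Itga10. In vehicle footprints per kilobase of coding sequence, Lamc1 (185.9 CPM) lay above Itga6 (180.5 CPM).

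The wider adhesion machinery was measured through lists of pathway genes. For the counts in these lists, the shares over all genes tested were 12.4% higher and 13.9% lower in RNA. In footprints they were 0.937% higher and 1.6% lower. Of 43 adhesion complex and integrin signalling genes 40 were listed, 6 rose in RNA and 3 fell. The smallest p in each direction belonged to Tns4, an adhesion adaptor of epithelial cells (log2 fold change 1.61), Elmo1, a Rac activator subunit (1.16), and Fermt1, the epithelial kindlin (1.57), and to Tns1 (-1.11), Rap1b (-0.60) and Tgfb1i1 (-1.03) among those that fell. In footprints Tns4 alone of the 40 was called (1.25). Fermt1 thus rose in RNA together with its relative Fermt2. Tns1, Rap1b and Tgfb1i1 were not called without vehicle RNA replicate 1, vehicle replicate 3 or AP20187 replicate 1, whereas Tns4, Elmo1 and Fermt1 were called under all 10 alternatives.

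Of 13 listed hemidesmosome, tetraspanin and dystrophin complex genes 3 rose and 4 fell in RNA. Cd9 (0.69) and Cd151 (0.80), tetraspanins that associate with integrins, and Dst (0.88), whose epithelial form anchors keratin to alpha6beta4, rose. Dmd (-0.68) and Cd63 (-0.46) were among those that fell, and none of the 13 was called in footprints. Without vehicle RNA replicate 3 none of the 3 rises was called, nor were Dmd and Cd63. Of 8 other basement membrane proteins and receptors Sdc1 (1.28), the epithelial syndecan, rose and Hmcn1 (-1.06) fell. The Hmcn1 call ended without vehicle RNA replicate 1 or 3 or AP20187 replicate 1 or 3.

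Genes that process collagens and laminins split. P4hb (0.93) and Plod3 (0.64) rose, while P4ha2 (-1.64) and P4ha1 (-0.78), alpha subunits of the prolyl 4-hydroxylase whose beta subunit is P4hb, fell among the 9 listed. P4ha2 fell in footprints as well (-1.65). Of 4 proteases and inhibitors listed Ctsb (0.92) rose in RNA. Among 11 other integrin ligands 3 rose and 6 fell, with a median of -0.92. Spp1, osteopontin, rose by 3.33 on the log2 scale, Mfge8 by 0.75 and Cdh1 by 0.61. Fn1, fibronectin and the ligand of alpha5beta1, fell by 1.50, Emilin1 by 0.92 and Icam2 by 1.04. In footprints Spp1 rose (2.57), and Fn1 (-1.70), Emilin1 (-2.01) and Icam1 (-1.63) fell. The RNA calls of Plod3, P4ha1, Mfge8, Cdh1, Emilin1 and Icam2 ended without vehicle RNA replicate 3, and no footprint call in these lists held without vehicle footprint replicate 1, 2 or 3.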

How the data were processed

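Mammary epithelial cells of 12 libraries were measured by RNA-seq or ribosome footprinting. The deposited file holds raw counts per gene, which the authors made with bcl2fastq 1.8.3, cutadapt, STAR, Bowtie2, HTSeq and mm10, per the submitters' processing notes; no source used here states the settings, strand use, counted region or choice of the 7318 listed genes. The counts were not normalized. Groups came from the labels.

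Here edgeR 4.0.16 (R 4.3.3) fitted its quasi-likelihood test with TMM scaling and filterByExpr (minimum count 10) on all genes, with Benjamini-Hochberg adjustment over them and a threshold of 0.05. The 4 comparisons were AP20187 against vehicle in RNA and in footprints (6 libraries each), the interaction of assay and treatment (all 12), and footprints against RNA in vehicle. CPM used TMM factors within each assay, and SE came from the F statistic. Levels per kilobase divided RNA by the length of the principal transcript of GENCODE M21 (GRCm38) and footprints by its coding length; that annotation matched 7144 of the genes and all 43 members. The script was tested on simulated data. Alternatives were RLE scaling, no filter, DESeq2 1.42.0, the replicate number as a block and leaving out each library. With 3 libraries a group, precision is limited by their number and, in footprints, by depth.

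Whether numbers pair libraries was checked by correlating deviations from the group means. In footprints same-numbered vehicle and AP20187 libraries gave 0.22, 0.283 and 0.408, all over 0.1. The blocked edgeR value is therefore printed for each uncalled member whose footprints passed with the block. Other members stayed uncalled in footprints with it, among them Vcl, Lamb2, Fermt2, Lamb3 (adjusted p = 0.707) and Tln2 (adjusted p = 0.781). The labels give the number and do not say what it marks.

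Members called in RNA, footprints or translational efficiency are named, with values in every library for the 12 of smallest p in RNA, those called elsewhere and the member highest in RNA in each role; for occupancy the 4 highest and 4 lowest called; for other lists up to 3 genes of smallest p in each direction. Members given more values, such as Lama4, were chosen after their values were seen. Ratios between partner genes are printed for only some of the pairs computed. Of those not printed, Lamb1, Lamb2 and Nid1 to Lamc1, Lama4 to Lama5, and Itga6 to Itgb1 overlapped between treatments in both assays. Itgb4 to Itgb1, Hspg2 to Col4a2 and Tln2 to Tln1, also not printed, were separated in RNA, footprints or both. Members and lists were chosen with earlier results of these data known. A member and a gene of another list enter the counts and medians and are not reported here by name.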

Additional observations from a re-analysis of the deposited data

How the results depend on the processing

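For the members' calls, 15 lower in RNA became 4 with the replicate number as a block, which the RNA libraries do not bear out as a pairing: same-numbered libraries' deviations correlated at 0.197, -0.056 and -0.048, and vehicle 2 fitted AP20187 3 best (0.224). Leaving out 1 RNA library gave 1 to 6 higher and 4 to 20 lower. In footprints the 7 lower calls became 14 with DESeq2 and 15 with the replicate block, and leaving out 1 library gave 0 to 1 higher and 0 to 7 lower. In translational efficiency DESeq2 called 1 member lower, and every other alternative called 0. In vehicle occupancy leaving out 1 library gave 13 to 19 higher and 3 to 5 lower, and the block 17 and 4. Counts over all genes moved by more than 1.5 times with the block for lower genes in RNA (1013 to 661; higher, 906 to 620) and for footprints (353 and 362), and with DESeq2 in footprints (218 and 320) and translational efficiency (8 and 2). Leaving out 1 library gave 247 to 1048 higher and 291 to 1166 lower genes in RNA, and 0 to 84 and 0 to 123 in footprints. No called value reported changed sign under any alternative run. Footprint depth limits the rarest members: Itgb3 and Itga10 had as few as 2 and 6 counts.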
